A study of Mus musculus with 12 samples.

Results

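Integrins and cadherins are the main families of cell surface receptors by which cells hold on to the extracellular matrix and to one another, and their messenger RNAs were followed in 3 mouse pigment cell lines with and without SX-682, an inhibitor of the chemokine receptors CXCR1 and CXCR2. The genes were chosen by symbol among the protein-coding genes. The symbols were Itga followed by a number or by v, x, l, m or e, Itgb1 to Itgb8, and Cdh followed by a number. The rule found 48 of the 34513 genes counted, made up of 17 integrin alpha subunits, 8 integrin beta subunits and 23 cadherins. Of these, 46 had more than 3 counts in at least 1 library (Cdh8 and Cdh20 did not), and 36 passed the expression filter and were tested.

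RNA was taken from cultures of Melan-A, an immortal non-tumorigenic melanocyte line, and of the melanoma lines B16F0 and B16F10. B16F10 was derived from the B16 melanoma by repeated selection of cells that colonized the lung. Each line was sequenced without treatment, as the labels give the controls, and after SX-682. Every one of the 6 groups held 2 libraries. The dose and time of SX-682 in these cultures are not given in the sources used here, the labels do not say that the replicates are separate cultures, and p-values measure only the spread between these libraries. Each line is a single line, so that tumorigenicity and any other trait of that line cannot be told apart.

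An integrin is a pair of an alpha and a beta subunit, and the pair sets the ligand. Alpha 1, 2, 10 and 11 with beta 1 bind collagens, alpha 3, 6 and 7 bind laminins, and alpha 5, 8, v and IIb recognize the RGD motif of fibronectin, vitronectin, nephronectin or fibrinogen. Alpha 4 and alpha 9 bind VCAM-1, fibronectin segments or tenascin, and alpha L, M, X and E pair with beta 2 or beta 7 on leukocytes. Cadherins bind one another across cell contacts in the presence of calcium, and the classical members hold catenins at their cytoplasmic tail. In the skin, melanocytes are held among keratinocytes by E-cadherin, and a shift from E-cadherin towards N-cadherin is a known feature of melanoma.

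Library totals were 48876982 to 85322092 counts, and a floor of 3 counts corresponded to 0.033 to 0.0623 CPM (counts scaled to library size) after TMM scaling. Replicates differed beyond counting noise in every group, with a chi-square per gene of 2.82 to 4.97. Of 12 melanocytic markers, all 12 reached 1 CPM in B16F0 and B16F10 controls and 8 did in Melan-A controls, where Tyr, Oca2 and Trpm1 were below 1 CPM and Gpr143 was at 0.0116 and 0.011 CPM. Their summed level was 1355 to 1385 CPM in Melan-A controls, 19774 to 19875 in B16F0 controls and 25463 to 25497 in B16F10 controls. Keratinocyte markers summed to 5.58 to 6.03 CPM in Melan-A controls and to at most 0.496 CPM in B16 controls. Fibroblast markers summed to 115 to 116 CPM in Melan-A controls and 8.43 to 16.7 CPM in B16 controls, and Schwann cell markers to 571 to 590.0 CPM in Melan-A, 189 to 192 CPM in B16F0 and 399.8 to 407 CPM in B16F10 controls. Single markers could run against these sums. Mbp made up most of the Schwann cell sum in Melan-A controls, at 440.45 and 459.35 CPM. Ngfr of that list was at 0.0579 and 0.0440 CPM in Melan-A, 9.20 and 8.62 in B16F0 and 108 and 108 in B16F10 controls. The melanocytic marker Sox10 was at 655 and 685 CPM in Melan-A, 445 and 460.2 in B16F0 and 582 and 589 in B16F10 controls. The part of these markers in the results below was not tested.

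The genes lie on 15 chromosomes, with 9 on chromosome 8, 8 on chromosome 2 and 7 on chromosome 15. Itga2 and Itga1 are 21.0 kb apart on chromosome 13, Itgam and Itgax 11.1 kb apart on chromosome 7, and Cdh3 and Cdh1 46.1 kb apart on chromosome 8. Some exons overlap those of another gene, and the sources used here do not say whether strand was used in counting. Among the 36 tested genes, 33.5% of the exon bases of Itga10 were shared with Gm42957 and 3.68% of those of Itga1 with Gm49395, both on the same strand. On the opposite strand, 8.04% of the exon bases of Itga4 were shared with Cerkl, 7.66% of Itgb4 with B230344G16Rik, 6.33% of Cdh9 with Gm49127, 5.90% of Itgav with Gm13684, 5.05% of Itga8 with E030013I19Rik and 0.111% of Itga7 with Mettl7b. Reads in these parts cannot be told apart.

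The widest differences between the lines were those of Itga3, Itga11, Itga4 and Cdh6, each of which was near the counting floor in at least 1 line and abundant in another. The sequence just before their start sites is therefore shown, as the RefSeq bases (GRCm38.p6) that precede both the RefSeq start and the gene as annotated in the counts, 5′ to 3′ on the strand of the gene. Capitals mark the letters CAGGTG or CACCTG, a form of the E-box (CANNTG) that the repressors SNAI1, SNAI2 and ZEB1 are known to bind, and the GC-box letters GGGCGG or CCGCCC; both strands were searched, and neighbouring GC boxes may overlap.
Itga3, 163 bases: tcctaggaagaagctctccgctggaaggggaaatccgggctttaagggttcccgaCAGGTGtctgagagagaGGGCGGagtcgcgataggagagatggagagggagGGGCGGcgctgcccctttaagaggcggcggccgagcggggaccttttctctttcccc
Itga11, 221 bases: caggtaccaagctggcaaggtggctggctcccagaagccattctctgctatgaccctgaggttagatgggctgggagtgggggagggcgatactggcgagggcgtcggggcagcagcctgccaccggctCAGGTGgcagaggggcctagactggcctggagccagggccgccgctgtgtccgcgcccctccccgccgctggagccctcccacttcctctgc
Itga4, 250 bases: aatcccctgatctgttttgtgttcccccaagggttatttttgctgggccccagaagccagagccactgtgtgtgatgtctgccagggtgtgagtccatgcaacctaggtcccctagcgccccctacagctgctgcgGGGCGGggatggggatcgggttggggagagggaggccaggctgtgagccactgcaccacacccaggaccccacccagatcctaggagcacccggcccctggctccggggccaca
Cdh6, 250 bases: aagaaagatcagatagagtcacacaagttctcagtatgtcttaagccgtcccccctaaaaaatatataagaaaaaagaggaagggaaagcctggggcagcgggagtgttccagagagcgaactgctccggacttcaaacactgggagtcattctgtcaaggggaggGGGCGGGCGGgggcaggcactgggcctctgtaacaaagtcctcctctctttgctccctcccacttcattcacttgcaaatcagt
These stretches are chr11:95076802-95076964 on the minus strand, chr9:62677605-62677825 on the plus strand, chr2:79255176-79255425 on the plus strand and chr15:13173676-13173925 on the minus strand. The E-box letters occurred 1 time each before Itga3 and Itga11, and in 11.8% and 15.6% of all 32851 promoter windows taken at those lengths. They were not found before Itga4 or Cdh6, where 17.2% of all windows of 250 bases held them. GC-box letters occurred 2 times before Itga3, 1 time before Itga4 and 2 times, overlapping, before Cdh6, against 18.4% of all windows at the length of Itga3 and 32.7% at 250 bases. The table of promoters held 31 of the 48 genes, and a match of letters is a description of the sequence only.

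Untreated cells were compared first. Relative to Melan-A, the mean of both B16 lines was higher in 5 and lower in 26 of the 36 genes tested (edgeR quasi-likelihood test, adjusted p under 0.05), while 33.7% of all 18338 genes tested were higher and 42.4% lower (76.1% in either direction). The median log2 difference of the 36 genes was -1.57, beside -0.085 over all genes. By family, 12 of 15 alpha subunits, 4 of 7 beta subunits and 10 of 14 cadherins were lower. B16F10 was in turn lower than B16F0 in 24 genes and higher in 5, with 31.2% of all genes lower and 30.8% higher (62% in all), and the median of the members was -1.25 beside -0.0017 over all genes. The number of lower genes shrank when some single libraries were left out, while the number of higher genes did not change. The filter keeps a gene that is high in a single group, so these counts cover only the genes that passed it. Because the B16 lines went in opposite directions for several genes, each was also set against Melan-A alone, a choice made after seeing the values; both comparisons use the same Melan-A controls. The calls were lower in both lines for 19 genes, higher in both for 3, higher in B16F0 and lower in B16F10 for 3, higher in B16F0 alone for 1, lower in B16F10 alone for 8 and in neither for 2. For B16F0 alone 35.3% of all genes were called higher and 40.6% lower (75.9% in all), and for B16F10 alone 33.4% higher and 40.8% lower (74.2% in all). The share of all genes with each joint pattern is not given here, so the pattern counts are a description only.

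**Figure D1:**
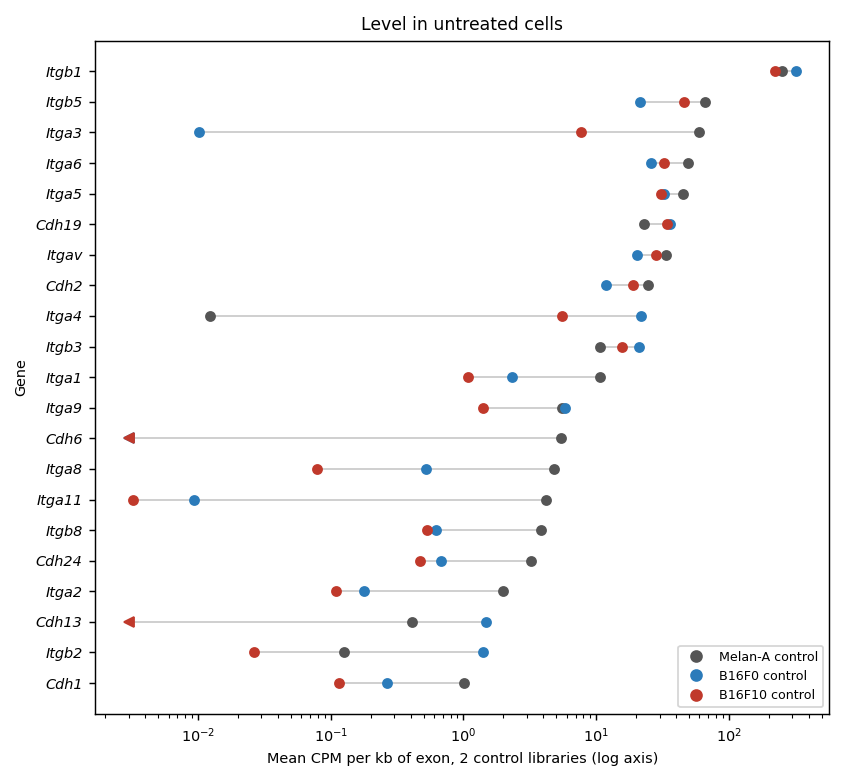
Mean level of 21 integrin and cadherin genes in the untreated libraries of each line, in CPM per kb of exon on a log axis, for genes that reached 0.5 CPM per kb in at least 1 line; triangles mark values below 0.003, where the B16F0 symbol of Cdh6 lies under that of B16F10. Itgb1 was highest in all 3 lines, while Itga3, Itga4, Itga11, Cdh6 and Cdh13 span the widest ranges.

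Per kb of exon, Itgb1, the beta subunit shared by most matrix-binding integrins, had the highest level of the 48 genes in each line. It stood at 320.3 CPM per kb in B16F0, 252 in Melan-A and 222 in B16F10 controls. The next were Itgb5 (66.1 CPM per kb), Itga3 (59.9) and Itga6 (49.4) in Melan-A, Cdh19 (36.2), Itga5 (32.5) and Itga6 (25.9) in B16F0, and Itgb5 (45.5), Cdh19 (34.2) and Itga6 (32.3) in B16F10. The order is a description of group means of 2 libraries and was not tested between genes.

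Among the beta subunits, Itgb1 was at 1033 and 1023 in Melan-A, 1295 and 1319.7 in B16F0 and 896 and 919.9 in B16F10 CPM in the 2 controls of each line. The 3 lines did not overlap, with log2 differences from Melan-A (± standard error, as throughout) of 0.35 ± 0.0191 in B16F0 and -0.18 ± 0.0192 in B16F10. Itgb3, which pairs with alpha v and alpha IIb and is known in melanoma for its association with invasive growth, was at 64.8 and 61.9 in Melan-A, 124 and 124 in B16F0 and 90.1 and 94.1 in B16F10 CPM and was higher in both B16 lines, by 0.97 and 0.54 on the log2 scale. Itgb5, an alpha v partner that binds vitronectin, was at 235 and 235 in Melan-A, 75.0 and 77.4 in B16F0 and 162 and 161 in B16F10 CPM. It was lower than Melan-A in B16F0 (-1.62 ± 0.0275) and in B16F10 (-0.54 ± 0.0262), and higher in B16F10 than in B16F0 (1.08 ± 0.028, adjusted p = 5.67e-24).

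Itgb8, an alpha v partner known to activate latent TGF-beta, was at 43.3 and 42.0 in Melan-A, 6.67 and 7.06 in B16F0 and 5.79 and 5.88 in B16F10 CPM. Its level in both B16 lines was below that in Melan-A, with log2 differences of -2.63 ± 0.0739 and -2.87 ± 0.077. Itgb4, the alpha 6 partner of hemidesmosomes, was at 3.0 and 2.85 in Melan-A, 3.15 and 3.38 in B16F0 and 1.17 and 1.0 in B16F10 CPM, with no call between B16F0 and Melan-A (0.16 ± 0.189, adjusted p = 0.457) and a lower level in B16F10 (-1.43 ± 0.213). Itgb2, the beta subunit of leukocyte integrins, was at 0.336 and 0.429 in Melan-A, 4.52 and 4.09 in B16F0 and 0.0827 and 0.0782 in B16F10 CPM. It was higher in B16F0 and lower in B16F10 than in Melan-A, and B16F0 exceeded B16F10 by a ratio of 53.7 (95% interval 29 to 113), where the exact interval covers counting error only. Leukocyte markers summed to 1.55 to 1.81 CPM in B16F0, 1.24 to 1.44 CPM in B16F10 and 13.9 to 14.5 CPM in Melan-A controls. Ptprc, the pan-leukocyte antigen CD45, was at 0.0534 and 0.0149 CPM in B16F0 and 0.255 and 0.0550 CPM in Melan-A controls. The source of the Itgb2 reads was not tested.

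**Figure D2:**
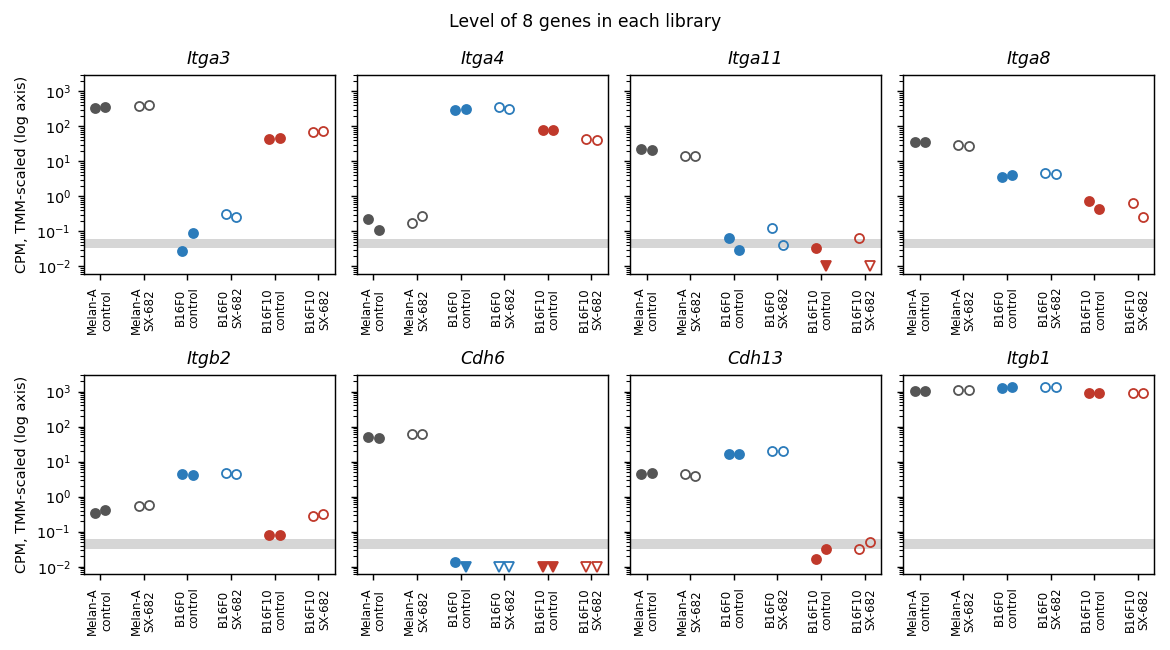
Level of 8 genes in each of the 12 libraries, in CPM after TMM scaling on a log axis; filled symbols are controls and open symbols SX-682, triangles at 0.01 stand for 0 counts, and the grey band is the range of the 3-count floor over libraries. Itga3 is absent or nearly so in B16F0, Itga4 in Melan-A, Cdh13 in B16F10, and Itga11 and Cdh6 in both B16 lines, whereas Itgb1 is plotted for scale and stays within 896 to 1369.7 CPM.

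The collagen-binding alpha subunits were all highest in Melan-A among the members above 1 CPM. Itga1 was at 198 and 197 in Melan-A, 43.8 and 42.2 in B16F0 and 20.3 and 20.0 in B16F10 CPM, a stepwise order in which no 2 lines overlapped. Itga2 was at 14.6 and 13.7 in Melan-A, 1.17 and 1.35 in B16F0 and 0.942 and 0.626 in B16F10 CPM, lower in both B16 lines by -3.49 ± 0.146 and -4.18 ± 0.161 on the log2 scale. The call of Itga2 between B16F10 and B16F0 (-0.69 ± 0.209) was lost without B16F10 control replicate 2 (-0.42, adjusted p = 0.14). Itga11, a receptor of fibrillar collagen best known in fibroblasts, was at 21.8 and 20.9 in Melan-A, 0.0667 and 0.0297 in B16F0 and 0.0331 and 0 in B16F10 CPM. Melan-A thus exceeded B16F0 by a ratio of 434 (95% interval 210.4 to 1079.8) from 7 counts in B16F0, and B16F10 by 1329 (95% interval 368 to 10975) from 2 counts.

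Of the laminin-binding subunits, Itga3 spanned the widest range between the lines. Itga3, whose product binds laminins of basement membranes, was at 333 and 352 in Melan-A, 0.0267 and 0.0892 in B16F0 and 43.0 and 45.1 in B16F10 CPM. Only 2 and 6 counts stood behind the B16F0 values, and B16F0 was lower than Melan-A by a ratio of 6086 (95% interval 3088 to 14097) and lower than B16F10 by 783 (95% interval 397 to 1814). B16F10 was itself lower than Melan-A, by -2.96 ± 0.0373 on the log2 scale. Itga6, the laminin receptor subunit shared with Itgb4, was at 451 and 452 in Melan-A, 234 and 240.2 in B16F0 and 294 and 296 in B16F10 CPM and was lower in both B16 lines (-0.93 ± 0.0235 and -0.61 ± 0.0234), with B16F10 above B16F0 (0.32 ± 0.0238). Itga7, the laminin receptor subunit of muscle, was at 1.07 and 1.36 in Melan-A, 1.08 and 1.09 in B16F0 and 0.347 and 0.454 in B16F10 CPM, near 1 CPM in Melan-A and B16F0 and below 0.5 CPM in B16F10.

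Among the RGD-binding subunits, Itgav, Itga5 and Itga8 were lower in both B16 lines than in Melan-A. Itgav, which pairs with beta 1, 3, 5, 6 and 8, was at 368 and 355 in Melan-A, 215 and 219.6 in B16F0 and 301 and 302 in B16F10 CPM, with log2 differences of -0.73 ± 0.0258 in B16F0 and -0.26 ± 0.0255 in B16F10. Itga5, the fibronectin receptor subunit, was at 216 and 229 in Melan-A, 162 and 158 in B16F0 and 154 and 152 in B16F10 CPM and differed by -0.47 ± 0.0285 and -0.54 ± 0.0287. The lower level of Itga5 in B16F10 than in B16F0 (-0.067 ± 0.0292) did not hold with RLE scaling (adjusted p = 0.0659) or DESeq2 (adjusted p = 0.07). Nor did it hold without the expression filter (adjusted p = 0.121) or in separate fits (adjusted p = 0.0684). Without B16F0 control replicate 1 the difference was -0.044. Itga8, the nephronectin receptor subunit, was at 35.4 and 35.8 in Melan-A, 3.56 and 4.10 in B16F0 and 0.728 and 0.438 in B16F10 CPM, with no overlap between lines. Itga2b, the platelet fibrinogen receptor subunit, was at 2.52 and 2.89 in Melan-A, 2.56 and 2.53 in B16F0 and 1.26 and 1.14 in B16F10 CPM, overlapping between Melan-A and B16F0 and lower in B16F10 (-1.18 ± 0.186).

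Itga4, which as alpha 4 beta 1 binds VCAM-1 and fibronectin, ran opposite to Itga3. It was at 0.232 and 0.110 in Melan-A, 299 and 309 in B16F0 and 77.6 and 76.8 in B16F10 CPM, so that B16F0 exceeded Melan-A by a ratio of 1794 (95% interval 1257 to 2659.8) and B16F10 exceeded Melan-A by 456 (95% interval 319 to 676). B16F10 was lower than B16F0 by -1.98 ± 0.0372 on the log2 scale. Itga9, its relative that binds tenascin-C and osteopontin, was at 42.1 and 43.4 in Melan-A, 43.1 and 45.7 in B16F0 and 10.3 and 11.2 in B16F10 CPM. Melan-A and B16F0 did not differ beyond their spread for Itga9 in this test (0.056 ± 0.0468, adjusted p = 0.285), and B16F10 was lower than both. The leukocyte subunits Itgam and Itgax had at most 4 counts in any library, and Itgae and Itgal stayed below 1 CPM in every group.

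Cdh19 and Cdh2 were the most abundant cadherins per kb in each line. Cdh19, a type II cadherin of neural crest and Schwann cell precursors, was at 98.6 and 97.9 in Melan-A, 153 and 157 in B16F0 and 147 and 146 in B16F10 CPM and was higher in B16F0 (0.66 ± 0.0298) and B16F10 (0.57 ± 0.0301) than in Melan-A. Cdh2, N-cadherin, was at 202 and 195 in Melan-A, 97.7 and 93.4 in B16F0 and 149.6 and 157 in B16F10 CPM, lower in both B16 lines (-1.05 ± 0.0315 and -0.37 ± 0.0307), and higher in B16F10 than in B16F0 (0.68 ± 0.0321). Cdh1, E-cadherin, was at 4.25 and 4.98 in Melan-A, 1.24 and 1.20 in B16F0 and 0.529 and 0.532 in B16F10 CPM, highest in Melan-A. Per kb of exon, Cdh2 stood at 24.6 CPM per kb and Cdh1 at 1.01 in Melan-A, 11.8 and 0.267 in B16F0, and 19.0 and 0.116 in B16F10. N-cadherin was therefore the more abundant messenger in the non-tumorigenic line as well.

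Cdh6, K-cadherin of kidney and neural crest, was at 50.2 and 48.6 CPM in Melan-A controls. It had 1 and 0 counts in B16F0 controls and 0 in both B16F10 controls, so that Melan-A was higher than B16F0 by a ratio of 7021 (95% interval 1259.9 to 277359) and at least 1024-fold higher than B16F10, set against the mean floor of 3 counts per library. Cdh13, T-cadherin, which is held by a lipid anchor and lacks the catenin-binding tail, was at 4.39 and 4.84 in Melan-A, 16.6 and 16.4 in B16F0 and 0.0165 and 0.0313 in B16F10 CPM. B16F0 was above Melan-A by 1.84 ± 0.0955 on the log2 scale and above B16F10 by a ratio of 684 (95% interval 234 to 3320.3), from 3 counts in B16F10. The mean of both B16 lines against Melan-A (-2.82 ± 0.212) hides these opposite directions.

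The other cadherins above 1 CPM in a group were Cdh24, Cdh10, Cdh15, Cdh17 and Cdh23. Cdh24, a type II cadherin that binds catenins, was at 10.9 and 11.7 in Melan-A, 2.46 and 2.25 in B16F0 and 1.60 and 1.67 in B16F10 CPM and was lower in both B16 lines. Cdh10, a type II cadherin of brain, was at 0.220 and 0.143 in Melan-A, 3.03 and 2.32 in B16F0 and 0.132 and 0.13 in B16F10 CPM and higher in B16F0 alone (3.87 ± 0.353). Cdh15 (M-cadherin of muscle) was at 0.868 and 1.52 in Melan-A, 0.294 and 0.253 in B16F0 and 0.0331 and 0.0626 in B16F10 CPM and Cdh17 (the intestinal LI-cadherin) at 1.02 and 1.08 in Melan-A, 0.174 and 0.104 in B16F0 and 0.0661 and 0.203 in B16F10 CPM. Cdh23, a tip-link cadherin of hair cells, was at 0.637 and 0.858 in Melan-A, 0.0400 and 0.0297 in B16F0 and 0 and 0.0313 in B16F10 CPM. All of Cdh15, Cdh17 and Cdh23 were called lower in each B16 line, at levels of at most 0.294 CPM there.

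**Figure D3:**
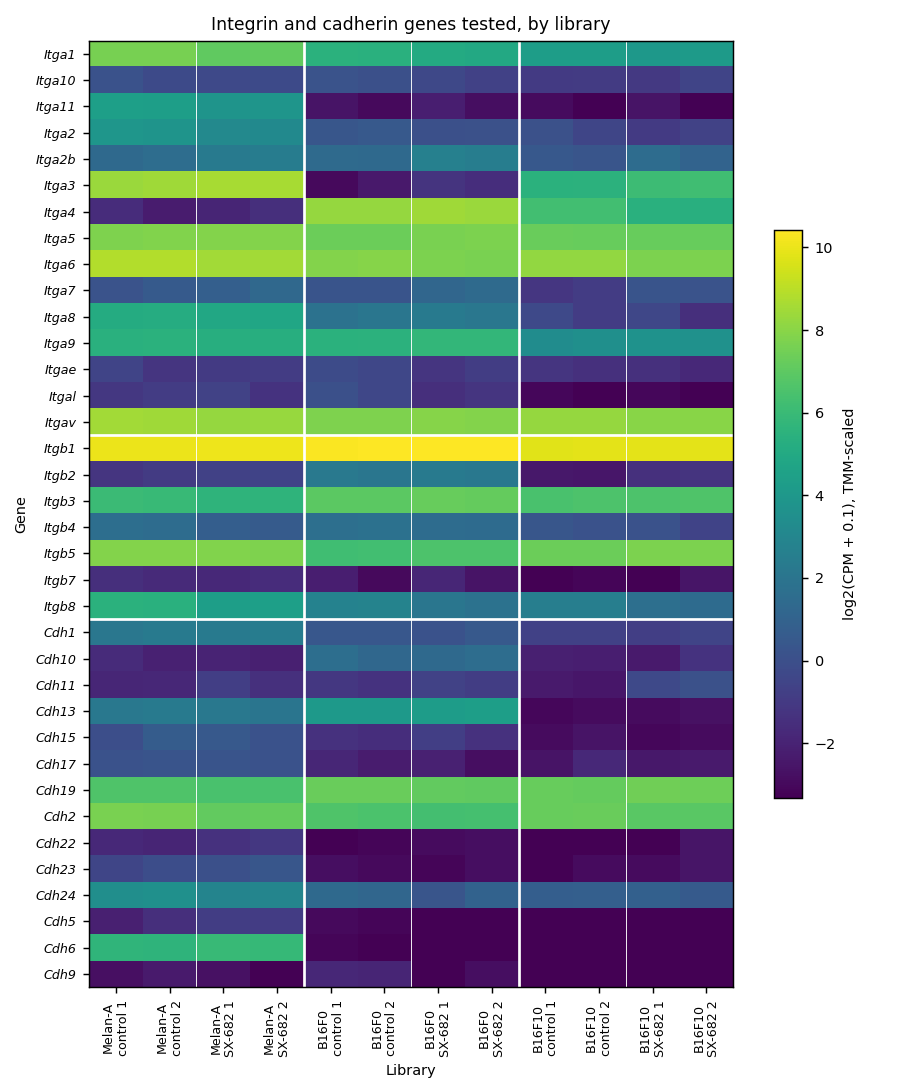
Level of the 36 tested genes (rows: alpha subunits, beta subunits, cadherins) in each of the 12 libraries (columns), as log2 of CPM plus 0.1. Most changes of colour lie at the borders between lines, and the 2 libraries of a group look alike for the abundant genes.

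SX-682 was then compared with control within each line. In Melan-A 6 of the 36 genes rose and 13 fell, in B16F0 11 rose and 8 fell, and in B16F10 9 rose and 7 fell. Leaving out each library in turn gave 4 to 6 rises in Melan-A, 7 to 9 rises in B16F10 and 5 to 8 falls in B16F0, with the 5 falls without SX-682 replicate 1 of B16F0. Over all genes tested, 23.4% rose and 24.7% fell in Melan-A, 25.1% and 25% in B16F0, and 25.5% and 25.3% in B16F10, so that 48.2%, 50.1% and 50.8% of genes were called in either direction and the members were called about as often as other genes. The replicate spread was small (biological coefficient of variation 2.78%), which lets changes of a few percent pass. With 2 libraries against 2, an exact permutation of a single gene cannot go below p = 0.333. The summed level of the melanocytic markers moved with treatment in the B16 lines, to 16625 to 16829.6 CPM in B16F0 and 15438 to 15689 CPM in B16F10 with SX-682, against 1356 to 1364 CPM in Melan-A. Single markers moved in opposite directions within the Melan-A sum. Sox10 was at 743 and 753 CPM with SX-682 against 655 and 685 in controls. Tyrp1 was at 143 and 143 CPM against 105 and 108. Dct was at 274 and 268 CPM against 358 and 351, and Mitf at 78.0 and 80.5 against 103 and 101. Marker sums of other cell types moved in Melan-A too: with SX-682 the Schwann cell markers were at 379 to 382 CPM, the fibroblast markers at 94.0 to 95.6 CPM, the keratinocyte markers at 3.35 to 3.69 CPM and the leukocyte markers at 11.5 to 12.3 CPM, each below both controls, and the endothelial markers were at 26.4 to 27.0 CPM against 17.7 to 18.8 CPM in controls. Not every marker followed its sum in Melan-A. Most of the Schwann cell sum was Mbp, at 276.2 and 275.9 CPM with SX-682 against 440.45 and 459.35 in controls. Egr2 of that list was at 27.8 and 30.8 CPM against 10.6 and 12.3. Csf1r of the leukocyte list was at 2.1 and 2.4 CPM against 2.0 and 2.0. Most of the endothelial sum was Vwf, at 24.8 and 24.6 CPM against 16.1 and 17.0. In B16F0 the Schwann cell markers were at 152 to 154 CPM with SX-682, below both controls. The endothelial markers of B16F0 were at 8.42 to 8.43 CPM with SX-682 against 5.40 to 5.57 CPM in controls. In B16F10 they were at 59.3 to 62.0 CPM against 53.8 to 54.3 CPM. The part of these changes in the results was not tested.

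**Figure D4:**
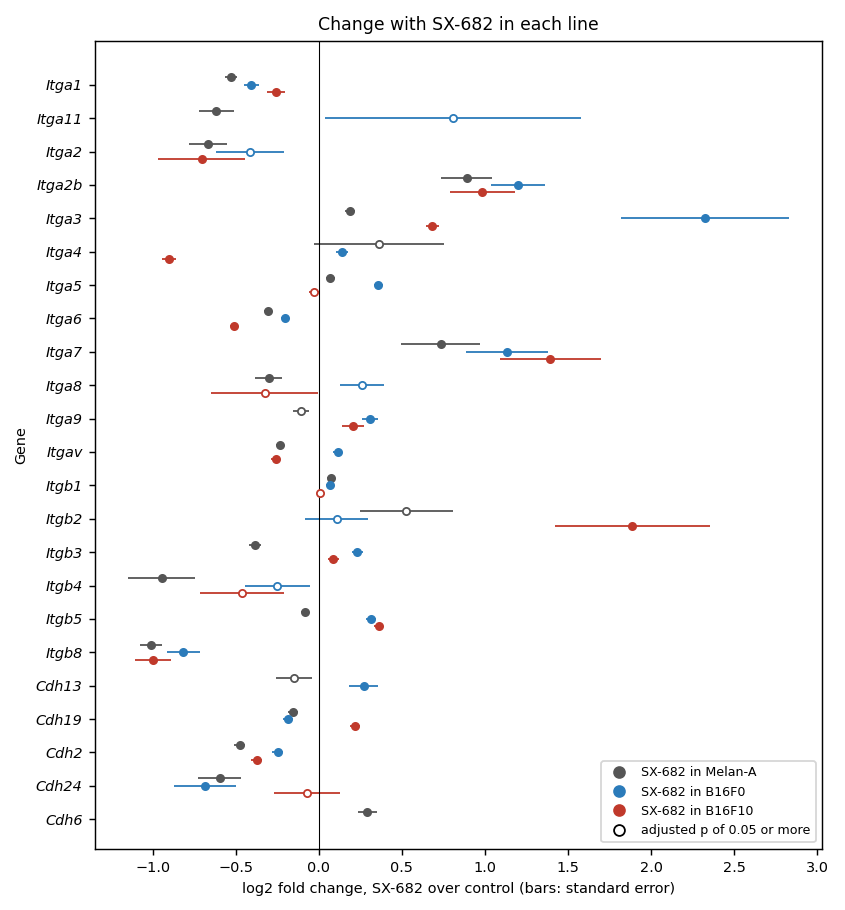
Log2 fold change of SX-682 over control with its standard error in each line, for the 23 genes at 1 CPM or more in a group that passed the threshold in at least 1 line; open symbols did not pass, and values with a standard error above 1 or with both groups at the floor are left out. Itga2b, Itga3 and Itga7 lie to the right of 0 in every line and Itga1, Itga6, Itgb8 and Cdh2 to the left, while the points of Itga4 lie on both sides.

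Across the lines, 4 genes fell in all 3 (11.7% of all genes tested did), 3 rose in all 3 (11.3%), 5 were called in opposite directions in different lines (9.59%), 14 were called in some lines in 1 direction (38%) and 10 were called in none (29.4%). The genes that fell in all 3 lines were Itgb8, Itga1, Itga6 and Cdh2. Of these, Itgb8 had the largest fall in each line. With SX-682 it was at 20.8 and 21.5 in Melan-A, 4.14 and 3.59 in B16F0 and 3.15 and 2.68 in B16F10 CPM, below every control of its line, with log2 fold changes of -1.01 ± 0.065 for Melan-A, -0.82 ± 0.0984 for B16F0 and -1.0 ± 0.107 for B16F10. Itga1 was at 135 and 139 in Melan-A, 33.5 and 31.2 in B16F0 and 15.9 and 17.8 in B16F10 CPM with SX-682, with changes of -0.53 ± 0.0354 for Melan-A, -0.41 ± 0.0447 for B16F0 and -0.26 ± 0.0547 for B16F10.

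Itga6 was at 367 and 363 in Melan-A, 208 and 204 in B16F0 and 208 and 206 in B16F10 CPM with SX-682, and its changes were -0.31 ± 0.0231 for Melan-A, -0.21 ± 0.0242 for B16F0 and -0.51 ± 0.0241 for B16F10. Cdh2 was at 141 and 144 in Melan-A, 79.6 and 81.7 in B16F0 and 118 and 119 in B16F10 CPM with SX-682, and changed by -0.48 ± 0.0306 for Melan-A, -0.25 ± 0.0337 for B16F0 and -0.37 ± 0.032 for B16F10. For both genes the treated libraries lay below the controls of the same line in every line. Itga6 and N-cadherin thus fell together with the collagen receptor subunit Itga1. The other laminin-binding subunits, Itga3 and Itga7, were instead called higher in all 3 lines.

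The genes that rose in all 3 lines were Itga2b, Itga3 and Itga7. Itga2b was at 4.71 and 5.33 in Melan-A, 6.15 and 5.50 in B16F0 and 2.75 and 1.98 in B16F10 CPM with SX-682, with log2 fold changes of 0.89 ± 0.156 for Melan-A, 1.20 ± 0.161 for B16F0 and 0.98 ± 0.195 for B16F10. Itga7 was at 1.68 and 2.36 in Melan-A, 2.22 and 2.55 in B16F0 and 1.09 and 1.03 in B16F10 CPM with SX-682, with changes of 0.73 ± 0.237 for Melan-A, 1.13 ± 0.247 for B16F0 and 1.39 ± 0.305 for B16F10. Both are low genes, and the call of Itga7 in Melan-A was lost without control replicate 1 (0.57, adjusted p = 0.12) or without SX-682 replicate 2 (0.47, adjusted p = 0.238). Itga3 was at 387 and 393 in Melan-A, 0.319 and 0.249 in B16F0 and 68.5 and 72.9 in B16F10 CPM with SX-682, and its changes were 0.19 ± 0.0317 for Melan-A, 2.33 ± 0.505 for B16F0 and 0.68 ± 0.0398 for B16F10. The change in B16F0 rests on 2 and 6 counts in the controls and 21 and 12 with SX-682, a ratio of 5.14 (95% interval 2.33 to 12.9). Itga3 remained far lower in treated B16F0 than in either other line.

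Itga4, Itgav, Itgb3, Itgb5 and Cdh19 were called in opposite directions in different lines. Itga4 was at 42.0 and 40.8 CPM in B16F10 with SX-682, and fell by 0.90 on the log2 scale, with an adjusted p of 2.84e-17. In B16F0 it was at 348 and 322 CPM, a rise of 0.14 ± 0.0342 that was lost without SX-682 replicate 1 (0.081, adjusted p = 0.0785). In Melan-A, where Itga4 is nearly absent, it was at 0.168 and 0.266 CPM.

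Itgav was at 306 and 310.1 in Melan-A, 240.4 and 229.9 in B16F0 and 252 and 252 in B16F10 CPM with SX-682, having fallen in Melan-A and B16F10 and risen in B16F0 (-0.23 ± 0.0254 for Melan-A, 0.11 ± 0.0263 for B16F0 and -0.26 ± 0.026 for B16F10). Of its partners, Itgb5 was at 223 and 221 in Melan-A, 94.2 and 95.4 in B16F0 and 208 and 207 in B16F10 CPM with SX-682, a rise in both B16 lines and a small fall in Melan-A (-0.082 ± 0.0257 for Melan-A, 0.31 ± 0.0291 for B16F0 and 0.36 ± 0.0266 for B16F10) whose call was lost without Melan-A SX-682 replicate 2 (adjusted p = 0.0745). Itgb3 was at 49.2 and 48.1 in Melan-A, 149 and 142 in B16F0 and 96.7 and 99.2 in B16F10 CPM with SX-682 and followed the same signs (-0.38 ± 0.0363 for Melan-A, 0.23 ± 0.0333 for B16F0 and 0.088 ± 0.0349 for B16F10). Its rise in B16F10 was lost without that line's control replicate 1 (adjusted p = 0.308) or SX-682 replicate 2 (adjusted p = 0.205). Cdh19 was at 88.4 and 88.1 in Melan-A, 139 and 134 in B16F0 and 173 and 166 in B16F10 CPM with SX-682, and fell in Melan-A and B16F0 but rose in B16F10 (-0.15 ± 0.0306 for Melan-A, -0.19 ± 0.03 for B16F0 and 0.22 ± 0.0298 for B16F10).

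The remaining alpha subunits above 1 CPM were called in some lines in 1 direction. Itga5 was at 230.4 and 236 in Melan-A, 204 and 207 in B16F0 and 149.8 and 149.6 in B16F10 CPM with SX-682 and rose chiefly in B16F0 (0.069 ± 0.028 for Melan-A, 0.36 ± 0.029 for B16F0 and -0.031 ± 0.0296 for B16F10). Its call in Melan-A was lost when any 1 of 7 libraries was left out, with adjusted p-values of up to 0.537 without Melan-A control replicate 1. Itga9 was at 39.7 and 39.7 in Melan-A, 55.5 and 54.3 in B16F0 and 12.7 and 12.2 in B16F10 CPM with SX-682, with a rise in B16F0 and B16F10 (-0.11 ± 0.047 for Melan-A, 0.31 ± 0.0474 for B16F0 and 0.21 ± 0.0664 for B16F10). The call in B16F10 was lost without control replicate 1 (adjusted p = 0.131) or SX-682 replicate 1 (adjusted p = 0.0777).

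The collagen receptor subunits Itga11 and Itga2 fell in Melan-A, where they are expressed. Itga11 was at 13.7 and 14.1 CPM with SX-682 in Melan-A (-0.62 ± 0.105) and at 0.121 and 0.0415 in B16F0 and 0.0660 and 0 in B16F10, at or near the floor. Itga2 was at 8.87 and 8.99 in Melan-A, 0.941 and 0.955 in B16F0 and 0.396 and 0.564 in B16F10 CPM with SX-682, with changes of -0.67 ± 0.116 for Melan-A, -0.41 ± 0.205 for B16F0 and -0.70 ± 0.261 for B16F10. Its call in B16F10 was lost without control replicate 1 (-0.39, adjusted p = 0.344) or SX-682 replicate 1 (-0.47, adjusted p = 0.234). Itga8 was at 30.1 and 27.8 in Melan-A, 4.76 and 4.34 in B16F0 and 0.660 and 0.256 in B16F10 CPM with SX-682 and fell in Melan-A (-0.30 ± 0.0822), a call lost without SX-682 replicate 2 there (adjusted p = 0.0712).

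Itgb1, the shared beta subunit, moved little in any line. It was at 1084 and 1076 in Melan-A, 1369.7 and 1365 in B16F0 and 910.1 and 918 in B16F10 CPM with SX-682, with changes of 0.071 ± 0.0191 for Melan-A, 0.065 ± 0.0191 for B16F0 and 0.0096 ± 0.0193 for B16F10; the call in B16F0 was lost without control replicate 1 (adjusted p = 0.0607). Itgb4 was at 1.60 and 1.44 in Melan-A, 2.76 and 2.72 in B16F0 and 0.989 and 0.581 in B16F10 CPM with SX-682 and fell in Melan-A (-0.95 ± 0.201), with -0.25 ± 0.196 in B16F0 and -0.46 ± 0.253 in B16F10 not past the threshold. Itgb2 was at 0.533 and 0.573 in Melan-A, 4.89 and 4.38 in B16F0 and 0.280 and 0.325 in B16F10 CPM with SX-682. It rose in B16F10 from 5 and 5 counts to 17 and 19 (1.89 ± 0.468, adjusted p = 0.00104), still below its level in the other lines.

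The other cadherins gave few calls. Cdh6 was at 61.4 and 59.6 CPM with SX-682 in Melan-A, a rise of 0.29 ± 0.0557, and had 0 counts in all 4 treated B16 libraries. Cdh13 was at 4.36 and 3.97 in Melan-A, 19.5 and 20.4 in B16F0 and 0.0330 and 0.0513 in B16F10 CPM with SX-682 and rose in B16F0 (0.27 ± 0.0875), a call lost without control replicate 2 (adjusted p = 0.0648) or SX-682 replicate 2 (adjusted p = 0.091) of that line. Cdh24 was at 7.29 and 7.63 in Melan-A, 1.12 and 1.89 in B16F0 and 1.75 and 1.37 in B16F10 CPM with SX-682 and fell in Melan-A (-0.60 ± 0.13) and B16F0 (-0.68 ± 0.188). Without B16F0 SX-682 replicate 1 the latter was -0.32 with an adjusted p of 0.231.

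Cdh1 was not called in any line. With SX-682 it was at 4.79 and 5.39 in Melan-A, 1.0 and 1.31 in B16F0 and 0.478 and 0.615 in B16F10 CPM, with changes of 0.14 ± 0.167 for Melan-A, -0.10 ± 0.222 for B16F0 and 0.041 ± 0.287 for B16F10. The low cadherins Cdh10, Cdh15, Cdh17 and Cdh23 were not called either. Cdh10 was at 0.154 and 0.133 in Melan-A, 2.52 and 2.91 in B16F0 and 0.0989 and 0.308 in B16F10 CPM with SX-682 and Cdh15 at 1.30 and 0.999 in Melan-A, 0.486 and 0.291 in B16F0 and 0.0165 and 0.0342 in B16F10 CPM. Cdh17 was at 1.07 and 0.999 in Melan-A, 0.137 and 0.0415 in B16F0 and 0.0824 and 0.103 in B16F10 CPM and Cdh23 at 0.939 and 1.16 in Melan-A, 0.0152 and 0.0415 in B16F0 and 0.0330 and 0.0684 in B16F10 CPM. With SX-682 as without it, Cdh10 was highest in B16F0 and the other three were highest in Melan-A.

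Below 1 CPM in every group were 8 tested genes, namely Itga10, Itgae, Itgal, Itgb7, Cdh5, Cdh9, Cdh11 and Cdh22. Cdh11, OB-cadherin of mesenchyme, had 6 and 5 counts in B16F10 controls and 44 and 56 with SX-682, a log2 rise of 3.22 ± 0.522 (adjusted p = 4.52e-06), and was not called in the other lines. Itgal, the alpha subunit of LFA-1, fell in B16F0 from 68 and 44 counts to 17 and 16 (-1.42 ± 0.474). That call was lost without B16F0 control replicate 1 (adjusted p = 0.126) or SX-682 replicate 1 (adjusted p = 0.108). Cdh9 fell in B16F0 from 14 and 11 counts to 0 and 2, a ratio of 10 (95% interval 2.5 to 87.3). DESeq2 did not call it (adjusted p = 0.169), nor did edgeR without the expression filter (adjusted p = 0.0834). The call was also lost without B16F0 control replicate 1 or 2 or without SX-682 replicate 1. In untreated cells Itgb7, Cdh5 (VE-cadherin of endothelium), Cdh22 and Itgal were called lower in the mean of both B16 lines. In B16F0 alone against Melan-A, Cdh5 (-3.12 ± 0.919) and Cdh22 (-4.36 ± 1.17) were called lower as well, whereas Itgb7 (-1.58 ± 0.787, adjusted p = 0.0708) was not called and Itgal had the opposite sign without a call (0.93 ± 0.435, adjusted p = 0.0553). B16F10 controls held at most 1 count of each of these in a library, against 11 to 41 counts in the Melan-A controls. Melan-A exceeded B16F10 by a ratio of 51.2 (95% interval 8.91 to 2051) for Itgal and 28.8 (95% interval 4.88 to 1164) for Itgb7, and was at least 4.06-fold higher for Cdh5 and at least 3.75-fold higher for Cdh22, which had 0 counts in B16F10 controls. Itga10 and Itgae were not called in the mean of both B16 lines or with SX-682 in any line. Itga10 was lower in B16F10 alone than in Melan-A (-1.09 ± 0.344, adjusted p = 0.00551). Both were lower in B16F10 than in B16F0, by -1.26 ± 0.346 for Itga10 and -1.24 ± 0.422 for Itgae, the latter call being lost without B16F0 control replicate 1 (adjusted p = 0.0702) or B16F10 control replicate 2 (adjusted p = 0.0738). With at least 10 counts required in every library, Itga10 was called lower in untreated B16 (adjusted p = 0.0463) and with SX-682 in B16F0 (adjusted p = 0.0462), and Itgae with SX-682 in B16F0 (adjusted p = 0.0237). The 12 genes that were not tested had a highest count of 3 to 17 in any library. These highest counts were 4 for Itgam, Itgax and Cdh7, 5 for Itgb6, Cdh18 and Cdh26, 3 for Cdh8 and Cdh20, 7 for Cdh12, 9 for Cdh3 and Cdh16, and 17 for Cdh4.

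Whether the response differed between lines was tested directly, as the change in both B16 lines minus that in Melan-A and as the change in B16F10 minus that in B16F0. The first difference was positive in 9 genes and negative in 0, with 18.7% and 17.1% of all genes called in these directions (35.8% in all) (edgeR). DESeq2 called 0 negative as well, and 0 had a negative difference at an unadjusted p under 0.05. The positive genes included the alpha v partners Itgb3 (0.54 ± 0.0436, adjusted p = 2.45e-11) and Itgb5 (0.42 ± 0.0324, adjusted p = 9.76e-12), and Itga9 (0.36 ± 0.0623). The second difference was positive in 3 genes and negative in 7, with 15.3% and 14.9% of all genes called (30.3% in all). It was largest relative to its error for Itga4 (-1.04 ± 0.0542), Itgav (-0.37 ± 0.037) and Cdh19 (0.40 ± 0.0423). For Itga2b, Itga7 and Itgb8, no difference between lines passed the threshold in either test; for Itgb8 the values were 0.10 ± 0.0987 and -0.18 ± 0.148.

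The proteins that work with these receptors were read from 6 lists, of which 6 genes were not tested (Fermt1, Vtn, Ctnna2, Ctnna3, Nectin1 and Twist1). Among 29 integrin adaptors and kinases, 3 rose and 18 fell in Melan-A, with a median log2 fold change of -0.21, whereas 10 rose and 12 fell in B16F0 and 7 rose and 10 fell in B16F10. The shares that rose and fell were 23.4% and 24.7% of all genes in Melan-A, 25.1% and 25% in B16F0, and 25.5% and 25.3% in B16F10, and the counts of each list are to be read against them. Ptk2, the focal adhesion kinase, rose by 0.14 for Melan-A, 0.21 for B16F0 and 0.14 for B16F10. Tns3, a tensin that links integrin tails to actin, changed by -0.78 for Melan-A, -0.23 for B16F0 and -0.94 for B16F10, and Parvb, a parvin of the integrin-linked kinase complex, by -0.22 for Melan-A, -0.33 for B16F0 and -0.70 for B16F10.

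Of 20 integrin ligands, 6 rose and 9 fell in Melan-A, 13 rose and 3 fell in B16F0, and 9 rose and 4 fell in B16F10, beside 23.4% and 24.7% of all genes in Melan-A, 25.1% and 25% in B16F0, and 25.5% and 25.3% in B16F10. Fn1, fibronectin, the ligand of alpha 5, alpha 4 and alpha v integrins, rose by 0.17 for Melan-A, 0.71 for B16F0 and 0.83 for B16F10. Lama5, a laminin chain bound by alpha 3 and alpha 6 integrins, rose by 0.28 for Melan-A, 0.82 for B16F0 and 1.06 for B16F10. Nid1, the basement membrane linker nidogen, changed by -0.30 for Melan-A, -0.79 for B16F0 and -0.58 for B16F10. In untreated cells 15 of the 20 ligands were lower in B16 than in Melan-A and 5 were higher, where 42.4% of all genes were lower and 33.7% higher.

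Of 12 catenins and junction linkers, 2 rose and 7 fell in Melan-A, 7 rose and 3 fell in B16F0, and 3 rose and 6 fell in B16F10, beside the same shares of all genes (48.2%, 50.1% and 50.8% called in either direction). Ctnnb1, beta-catenin, which binds the tail of classical cadherins, changed by -0.22 for Melan-A, -0.36 for B16F0 and -0.51 for B16F10, and Ctnnal1, a relative of alpha-catenin, by -0.52 for Melan-A, -0.32 for B16F0 and -0.15 for B16F10. Jup, plakoglobin, rose by 0.34 for Melan-A, 0.31 for B16F0 and 1.27 for B16F10, and Lpp, a LIM protein of adhesion sites, by 0.21 for Melan-A, 1.04 for B16F0 and 0.46 for B16F10. Beta-catenin and N-cadherin messengers therefore fell in each line, while plakoglobin rose.

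Among 10 tetraspanins, 2 rose and 1 fell in Melan-A, 4 rose and 2 fell in B16F0, and 2 rose and 2 fell in B16F10. Cd151, which binds laminin-receptor integrins, rose by 0.26 for Melan-A, 0.37 for B16F0 and 0.23 for B16F10, and Cd9 changed by -0.25 for Melan-A, -0.45 for B16F0 and -0.32 for B16F10. Of 21 other adhesion receptors, 7 rose and 8 fell in Melan-A, 8 rose and 5 fell in B16F0, and 7 rose and 7 fell in B16F10. These counts stand beside the same shares of all genes. Mcam, the melanoma cell adhesion molecule, changed by -0.31 for Melan-A, -0.77 for B16F0 and -0.77 for B16F10, and Cadm1, an immunoglobulin-type adhesion molecule, by -0.50 for Melan-A, -0.26 for B16F0 and -0.42 for B16F10. Ddr2, a collagen receptor kinase, rose by 0.13 for Melan-A, 0.67 for B16F0 and 0.74 for B16F10, and Cd47, a thrombospondin receptor known to associate with integrins, by 0.37 for Melan-A, 0.38 for B16F0 and 0.42 for B16F10.

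Of 6 repressors of E-cadherin transcription, 1 rose in Melan-A and 2 rose in each B16 line, and the lowest adjusted p among the negative changes was 0.0883. Over all genes tested, 23.4% rose and 24.7% fell in Melan-A, 25.1% and 25% in B16F0, and 25.5% and 25.3% in B16F10. Snai2, which is also a neural crest gene, rose by 0.40 for Melan-A, 0.98 for B16F0 and 1.14 for B16F10. Cdh1 itself was not called in these comparisons. In untreated cells 2 of these repressors were higher in B16 than in Melan-A and 4 were lower, beside 33.7% and 42.4% of all genes.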

How the data were processed

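Total RNA was sequenced in 12 libraries, 2 in each of 6 groups (Melan-A, B16F0 and B16F10, untreated or with SX-682). The authors deposited whole read counts per gene without normalization for 34513 genes on mm10 (GRCm38). The submitters' processing notes name cutadapt, STAR and DESeq2; the counting program and its strand setting are not given in the sources used here. Groups and replicate numbers came from the labels.

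The genes followed were selected by symbol, and these genes, the partner lists and the marker lists were chosen with earlier results of these data known. Counts were tested with edgeR 4.0.16 (R 4.3.3) by the quasi-likelihood F-test, fitting all 12 libraries together after TMM scaling. The filterByExpr filter left 18338 genes, the prior count was 0.125, and p-values were adjusted by Benjamini-Hochberg over these genes. The threshold was 0.05, and standard errors were derived from F. Residual degrees of freedom were 6 and prior degrees of freedom 21.9. CPM values are scaled by TMM, and CPM per kb uses merged exon length. Ratios of groups with few counts have exact Clopper-Pearson 95% intervals on summed counts, which like the floor of 3 counts cover counting error only. Each gene at 1 CPM or more in a group is given by library; lower tested genes are named where called with SX-682 or in untreated B16 against Melan-A. Partner genes are those called alike in all 3 lines, up to 2 rises and 2 falls by mean change. Alternatives were DESeq2 1.42.0, a prior count of 2, RLE scaling, a minimum of 10 counts per library, omission of the filter, separate fits, a replicate block and each library left out; each B16 line alone against Melan-A was added after the data were seen.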

Additional observations from a re-analysis of the deposited data

Results flagged for a closer look

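The response to SX-682 differed between lines, by a test of the difference itself, in 19 cases over 2 comparisons. For B16 minus Melan-A, 25% of the 36 genes were called, beside 35.8% of all genes tested. For B16F10 minus B16F0 the shares were 27.8% and 30.3%. Where the change in Melan-A was subtracted from the mean change of both B16 lines, the log2 differences were 1.32 ± 0.254 for Itga3, 0.54 ± 0.0436 for Itgb3, 0.42 ± 0.0324 for Itgb5, 0.36 ± 0.0623 for Itga9 and 0.20 ± 0.05 for Itga1. Those of Cdh19 (0.17 ± 0.0372), Cdh2 (0.17 ± 0.0384), Itgav (0.16 ± 0.0314) and Itga5 (0.10 ± 0.0348) were smaller. The mean hides changes of opposite sign in the B16 lines for Itgav, Cdh19 and Itga5. For Itgav they were 0.11 in B16F0 and -0.26 in B16F10, beside -0.23 in Melan-A. In the same order they were -0.19, 0.22 and -0.15 for Cdh19, and 0.36, -0.031 and 0.069 for Itga5. For Itga1 and Cdh2 the positive sign stands for a smaller fall in the B16 lines. The mean over both B16 lines of Itga3, 2.33 in B16F0 and 0.68 in B16F10, rests in part on 8 counts in the B16F0 controls.

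For the change in B16F10 minus that in B16F0, the log2 differences were negative for Itga3 (-1.64 ± 0.518), Itga4 (-1.04 ± 0.0542), Itga5 (-0.39 ± 0.0414), Itgav (-0.37 ± 0.037), Itga6 (-0.31 ± 0.0341), Itgb3 (-0.14 ± 0.0482) and Cdh2 (-0.13 ± 0.0465). They were positive for Cdh11 (2.64 ± 0.699), Itgb2 (1.78 ± 0.508) and Cdh19 (0.40 ± 0.0423). Cdh11 and Itgb2 had 5 or 6 counts in each B16F10 control. The call of Itga3 was lost without B16F0 control replicate 1 (-1.0, adjusted p = 0.228) or SX-682 replicate 1 (-1.43, adjusted p = 0.117). The call of Cdh2 was lost when any 1 of 5 libraries was left out, with adjusted p-values of up to 0.209, without B16F10 control replicate 2. For Itgb3 it was lost when any 1 of 4 libraries was left out, with values of up to 0.146, again without B16F10 control replicate 2. The call of Itga5 in B16 minus Melan-A was lost when any 1 of 5 libraries was left out, with values of up to 0.314 without Melan-A control replicate 2, and without the expression filter (0.103).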

How the results depend on the processing

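Replicate numbers did not pair the libraries: the deviations of same-numbered libraries correlated at -0.028 for Melan-A, -0.011 for B16F0 and -0.0089 for B16F10. With the replicate block, the number of genes of the 2 families called was the same as without it in all 7 comparisons (19, 19 and 16 for SX-682 in Melan-A, B16F0 and B16F10, 31 and 29 between untreated lines, 9 and 10 for the differences in response). No direction reversed under DESeq2, RLE scaling, no filter, a prior count of 2, separate fits, the block or any library left out; separate fits could not give the differences in response. With at least 10 counts required in every library, fewer genes were tested. Then 3 genes were higher and 16 lower in untreated B16 than in Melan-A, against 5 and 26. Itgb1 was still tested there and lost its higher call (0.030, adjusted p = 0.0975). Responses larger in B16F10 than in B16F0 numbered 1, against 3. B16F10 alone against Melan-A gave 3 genes higher. Against the mean of both lines, B16F0 alone reversed Itga9 (0.056), Itgal (0.93), Itgb4 (0.16) and Cdh13 (1.84), and B16F10 alone reversed Itgb1 (-0.18), Itgb2 (-2.23) and Cdh10 (-0.49). Of these 7 single-line values, those of Itga9, Itgal, Itgb4 and Cdh10 did not pass the threshold. Leaving out each library in turn gave 5 to 8 genes that fell in B16F0 (5 without SX-682 replicate 1 of that line) and 0 to 1 with a lower response in B16 than in Melan-A, Itga4 (-1.36) without Melan-A control replicate 1; the cause was not tested. RLE scaling moved the median of all genes by at most 0.032 on the log2 scale. Calls lost without single libraries included low genes (Itgal in B16F0) and abundant ones (Itga5 in Melan-A, Itgb1 in B16F0), and the part of depth in this was not tested.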
